A study of Mus musculus with 8 samples.

Results

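The clustered protocadherin genes were examined in RNA-seq of mouse cerebral cortex. Members were the protein-coding genes of the count table named Pcdh, then a, b or g, then an optional letter a to c and a number. There were 58 such genes among 55416 in the table, comprising 14 of the alpha cluster, 22 of the beta cluster and 22 of the gamma cluster. The rule used names only and no measured value. The study compared 4 L192P libraries, from mice of genotype AGO2_L192P/+, with 4 WT libraries from wild-type controls. AGO2 is the Argonaute protein that carries microRNAs (miRNAs) to target mRNAs, and L192P is a leucine-to-proline variant found in a human neurodevelopmental syndrome. The mice were a CRISPR/Cas knock-in whose founders were crossed to C57/Bl6, and heterozygotes were then bred with WT animals. The methods number the same residue 1 higher in the mouse protein. Age, sex and litter are not given in the labels, and the knock-in is present in every cell type of the tissue.

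Clustered protocadherins are cadherin-like proteins of the neuronal surface that bind the same isoform on another cell. Each alpha and gamma gene has its own promoter and a large first exon for the extracellular and membrane-spanning part, which is spliced to small constant exons used by the whole cluster, whereas each beta gene is a lone exon. Individual neurons express different combinations of the alpha, beta, gamma A and gamma B genes, chosen through promoters held near distal enhancers by CTCF and cohesin, and the combination lets neurites of a cell recognise and avoid each other. The 5 C-type genes (Pcdhac1, Pcdhac2, Pcdhgc3, Pcdhgc4 and Pcdhgc5) lie at the 3′ ends of the alpha and gamma clusters and are used by most neurons without such a choice.

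Since AGO2 acts through miRNAs, the 3′ UTR of each canonical transcript was searched for the exact 7-base match to the seed (bases 2 to 8) of 10 miRNAs of neurons or of the study. The neuron-enriched miR-124, which the paper used as a marker of neurons, was not among them. The 4 with the most members matched are printed from RefSeq (GRCm38.p6), 5′ to 3′ with the seed in capitals.
mmu-miR-29a-3p: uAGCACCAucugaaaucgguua
mmu-miR-128-3p: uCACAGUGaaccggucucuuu
mmu-miR-9-5p: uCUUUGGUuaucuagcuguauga
mmu-miR-30a-5p: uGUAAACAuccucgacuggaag
These 4 seeds differ from one another, and other miRNAs with the same seeds were not looked for. A match to miR-29a-3p lay in the 3′ UTR of all 14 alpha genes, which use the same constant 3′ exon, and in Pcdhb4 and Pcdhb22. Of other genes with a 3′ UTR at least as long, 22.9% held that match within the first 2404 bases. The 22 gamma genes, whose shared constant 3′ UTR is mostly 1835 bases long, held no match to any of the 10 seeds. Of other genes with a 3′ UTR at least that long, between 8.155% (miR-92a-3p) and 25.45% (miR-128-3p) held a given match within the first 1835 bases. In the beta cluster, miR-128-3p matched 5 genes (Pcdhb11, Pcdhb13, Pcdhb14, Pcdhb19 and Pcdhb22), miR-9-5p matched Pcdhb5, Pcdhb10 and Pcdhb19, and miR-30a-5p matched Pcdhb10, Pcdhb14 and Pcdhb22, over the whole 3′ UTR. Within the first 1216 bases, the median beta length, miR-128-3p matched 2 of the 11 beta genes with a 3′ UTR that long (Pcdhb11 and Pcdhb13), miR-9-5p 0 and miR-30a-5p 1 (Pcdhb22). In the same window of other genes these matches were held by 18.2%, 11.2% and 12.7%. The remaining matches were miR-26a-5p in Pcdhb3, miR-125b-5p in Pcdhb22, miR-92a-3p in Pcdhb8 and miR-5121 in Pcdhb5, and let-7a-5p and miR-138-5p matched no member. A seed match is a description of letters and not a measured site.

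All 58 members lie on the plus strand of chromosome 18 (GRCm39, GENCODE M39), within 912 kb. The alpha cluster spans chr18:37063237-37320716, the beta cluster chr18:37397991-37657532 and the gamma cluster chr18:37794846-37975014. The canonical transcript has 4 exons for every alpha and gamma gene and 1 exon for every beta gene. A window from 250 bases before to 50 after the start of the canonical transcript held the letters CGCT, the core of an element described in protocadherin promoters, on either strand in 56 of 58 members (96.6%). The exceptions were Pcdhb22 and Pcdhga12. The same 4 letters were in 76.3% of the windows of the other 452 protein-coding genes on that chromosome, so their presence alone sets few genes apart.

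The deposited counts summed to between 20396357 and 43575900 per library, and the members took between 0.0343% and 0.0414% of them. Ago2 itself, measured first, was at 2291 ± 75.1 normalized counts in L192P libraries and 2246 ± 130.4 in WT (SD, n = 4), a level that does not check the genotype because the knock-in changes a codon. A normalized count is a count divided by the library's DESeq2 size factor. Replicate 1 of both genotypes stood apart, with Xist at 0.934 and 1.82 normalized counts against at least 5185 in the other 6 libraries. All 5 markers of cortical excitatory neurons used here, Slc17a7, Tbr1, Cux2, Fezf2 and Neurod6, were present in every library, with a summed level of 35482 to 40114 in L192P and 40423 to 42285 in WT. Of 4 hypothalamic markers, Avp and Oxt were higher in L192P in the DESeq2 test, and the summed level of the list ran from 42.1 to 1041 in L192P and from 18.7 to 31.9 in WT. Of 6 interneuron markers, 4 had log2 fold changes above zero and 2 below. Gad2 was higher in L192P in the DESeq2 test. Slc32a1 had a log2 fold change of 0.14 (DESeq2 adjusted p 0.391), Gad1 one of 0.060 and Vip one of 0.0054. Pvalb had one of -0.22 (DESeq2 adjusted p 0.121) and Sst one of -0.044. The summed level of the interneuron list was 29564 to 32658 in L192P and 27539 to 31460 in WT. Avp was called in 16 of 17 alternatives, Gad2 in 10, and Oxt in 15 with no adjusted p under the replicate block. The part of these tissue differences in the values below was not tested, and in bulk tissue fewer cells and less RNA per cell cannot be told apart. The labels do not say that each library came from a separate mouse, so p-values measure the spread between these libraries.

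How much of each gene could be counted differed between the clusters. Of the exon bases of an alpha or gamma gene, at most 67.8% belonged to that gene alone on either strand, the rest lying in constant exons or under other genes. In the beta cluster, 19 of 22 genes shared no base. Some members had few counts. Pcdhga10 had no base free of both its cluster and the antisense lncRNA Gm26672, and received 36 counts over the 8 libraries. Pcdha4 had 404 own bases and 32 counts, and Pcdha11 had 1268 and 15 counts. Across the table, 76.8% of the 1052 genes with no exon base free on their own strand had no count at all. The same held for 69.1% of the 165 genes that had at least 500 bases free on their strand but none free of an antisense gene, against 29.3% of 39625 genes with at least 500 bases free on either strand. Whether the counting used strand is not given in the sources used here, and the values of members that overlap an antisense gene are uncertain to that extent.

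**Figure D1:**
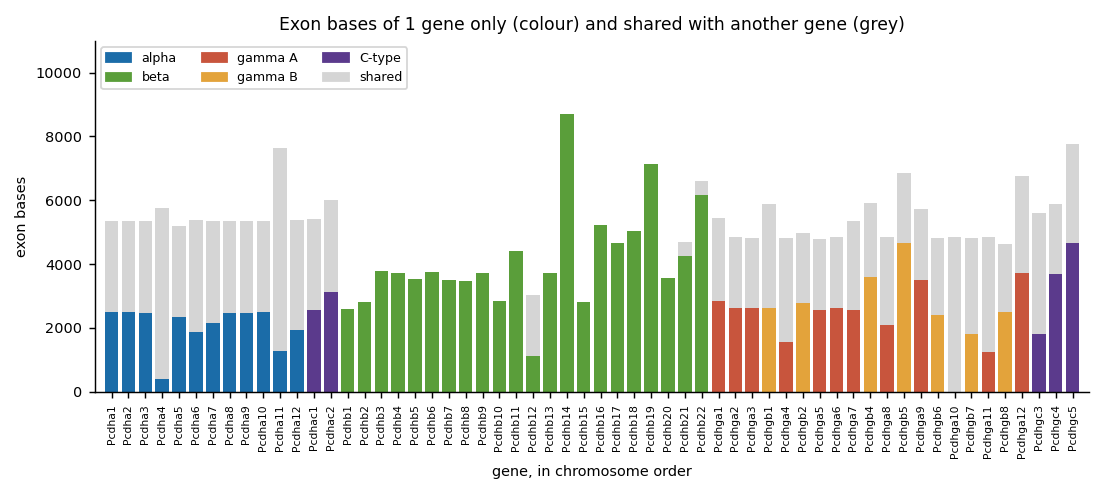
Exon bases (vertical axis) of the 58 members in chromosome order, coloured by class where no other annotated gene on either strand shares them and grey where another gene does. Most beta bars are fully coloured, each alpha and gamma bar has a grey part, and Pcdhga10 has no coloured part.

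Members also resemble each other in sequence. Exact 50-base stretches found in another member made up 23.4% of the first exon of Pcdha7, 17.8% of Pcdhgb2 and 11.99% of Pcdhb12, the highest share in the alpha, gamma and beta cluster respectively. The share was 0 in all 5 C-type genes. Reads in such stretches may be split or dropped, so values of genes with a high share are less certain.

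Level was compared between genes as normalized counts per kb of exon bases of that gene alone, averaged over all 8 libraries. Pcdhgc5, a C-type gene whose product binds a GABA-A receptor subunit, was the highest member at 364 per kb, with libraries from 296 to 413. This range lay above every library of every other member on this scale. Pcdhgc3, which acts in dendrite growth, followed at 228 per kb (183 to 277) and Pcdhac2, which serotonergic axons need for tiling, at 181 (152 to 242), and these ranges overlapped. The gamma A gene Pcdhga11 came next at 117 per kb, with libraries from 60.7 to 179.9 that overlapped those of Pcdhac2, a place that depends on the length used as given below. The other C-type genes were lower, Pcdhgc4 at 62.5 and Pcdhac1 at 20.9 per kb, so the class spanned most of the range of the family.

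The gamma A genes had a median level of 75.2 per kb, the gamma B genes 36.5, the beta genes 27.4 and the alpha genes other than the C-type 18.97. The bases counted were mainly first exons in alpha and gamma genes, but whole transcripts with their 3′ UTR in most beta genes. These medians therefore compare unlike parts of transcripts between classes. Among the gamma A genes below Pcdhga11, levels per kb fell in order from Pcdhga4 at 101, Pcdhga6 at 81.3, Pcdhga7 at 79.9, Pcdhga3 at 78.2 and Pcdhga8 at 75.2 to Pcdhga12 at 66.2, Pcdhga5 at 57.8, Pcdhga2 at 50.8, Pcdhga9 at 43.7 and Pcdhga1 at 23.01. Among the gamma B genes they ran from Pcdhgb6 at 72.2, Pcdhgb7 at 55.2, Pcdhgb1 at 38.4 and Pcdhgb2 at 36.5 to Pcdhgb8 at 25.3, Pcdhgb4 at 18.8 and Pcdhgb5 at 15.3. The beta genes were led by Pcdhb20 at 96.6, Pcdhb12 at 86.2, Pcdhb17 at 81.5, Pcdhb9 at 75.4 and Pcdhb22 at 50.2 per kb. The middle of the beta genes held Pcdhb3 at 43.5, Pcdhb7 at 43.2, Pcdhb13 at 40.6, Pcdhb5 at 36.7 and Pcdhb10 at 32.05, and then Pcdhb8 at 28.2, Pcdhb18 at 26.6, Pcdhb19 at 25.7, Pcdhb16 at 24.8, Pcdhb11 at 24.2 and Pcdhb14 at 24.1 per kb. The lowest beta genes were Pcdhb6 at 22.6, Pcdhb15 at 21.4, Pcdhb2 at 14.5, Pcdhb21 at 13.1, Pcdhb4 at 10.6 and Pcdhb1 at 0.436 per kb, and Pcdhb1 received 9 counts in all. Among the alpha genes, Pcdha12 at 65.6 per kb lay above Pcdha9 at 28.7, Pcdha5 at 28.03, Pcdha6 at 27.4, Pcdha7 at 26.00 and Pcdha10 at 20.4. The alpha genes Pcdha3 at 17.6, Pcdha2 at 16.5, Pcdha4 at 10.2, Pcdha1 at 9.73, Pcdha8 at 4.73 and Pcdha11 at 1.34 per kb were the lowest of their class. Neighbours in these orders mostly had overlapping libraries, as the plot of levels along the clusters shows. The order of the leading genes moved with the length used: Pcdhgc5 was first also per kb of all exon bases (218) and of the first exon (647), but Pcdhb20 ranked above Pcdhac2 and Pcdhgc3 when all exon bases were used. Members that overlap an antisense gene also moved. When bases under an antisense gene were kept in the length, the level of Pcdhga11 was 55.2 per kb in place of 117, below 6 other gamma A genes led by Pcdhga4. That of Pcdhb12 was 31.5 in place of 86.2, in the middle of the beta genes. Pcdhgc3 was then at 123 per kb, below Pcdhac2. Orders within classes moved too. Per kb of the first exon, Pcdhga4 was at 60.8, below Pcdhga12 at 83.3. Pcdhgb5 was at 27.5 on that scale, above Pcdhgb4 at 26.5 and Pcdhgb8 at 25.3.

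**Figure D2:**
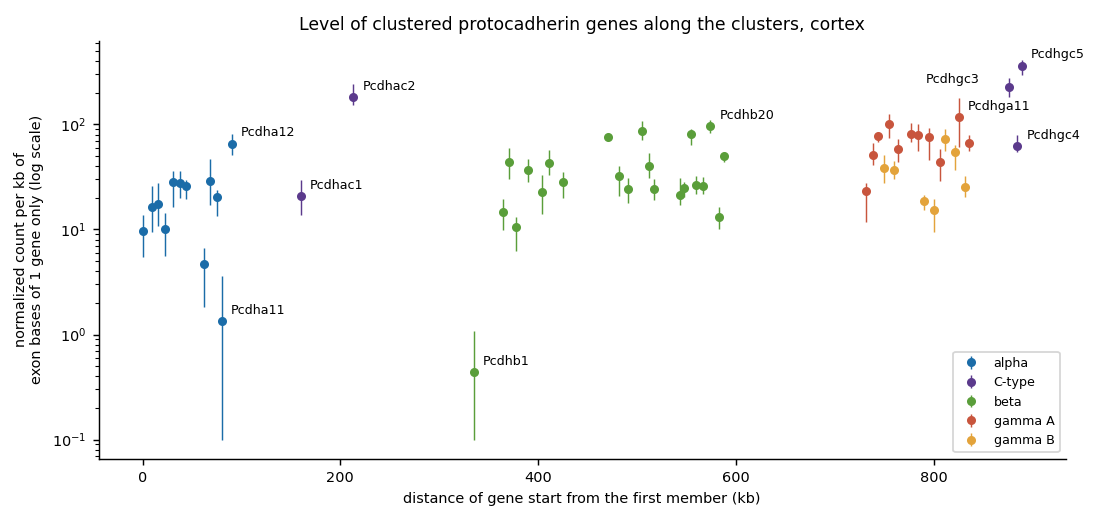
Normalized count per kb of exon bases of that gene alone (log scale) against the distance of the gene's start from the first member in kb. Points are means over 8 libraries, lines run from the lowest to the highest library with 0 drawn at 0.1, and the C-type genes Pcdhgc5, Pcdhgc3 and Pcdhac2 are the highest members.

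Composition within a cluster was similar in all libraries. It is given in normalized counts, with no adjustment for the exon bases that belonged to each gene alone. In the alpha cluster these ran from 404 in Pcdha4 to 3140 in Pcdhac2, so the shares are not shares of transcripts. Pcdhac2 supplied 48.9% ± 1.27 of the summed alpha normalized counts in L192P libraries and 48.1% ± 1.74 in WT (SD, n = 4). Pcdhgc5 supplied 34.9% ± 1.59 of the summed gamma counts in L192P and 34.8% ± 1.73 in WT. No beta gene supplied as much of its cluster, the highest being Pcdhb17 at 12.2% ± 1.01 and 11.3% ± 0.673. The distance between the compositions of 2 libraries was taken as the percentage points that would have to move from some genes to others. In the gamma cluster it had a median of 6.63 points between an L192P and a WT library, 6.85 between L192P libraries and 6.10 between WT libraries. In the alpha cluster these medians were 6.78, 7.16 and 7.22 points, and in the beta cluster 6.89, 7.66 and 7.19. Leaving out the pairs of libraries that share a replicate number, the median between genotypes was 6.76 points in the gamma, 7.07 in the alpha and 7.10 in the beta cluster. No test was run on these distances.

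The mean summed level of each cluster over all libraries was close in both genotypes, with an order of libraries that differed for replicate 1. The alpha genes together were at 1511, 983, 1087 and 1121 normalized counts in L192P replicates 1 to 4 and 1178, 1097, 1155 and 1235 in WT replicates 1 to 4. L192P replicate 1 was the highest library and the other 3 L192P libraries lay at or below most WT libraries. The means were 1176 ± 231 and 1166 ± 57.2 (SD, n = 4), a log2 ratio of 0.011 that became -0.13 without L192P replicate 1. The beta genes together were at 3185, 3062, 3160.4 and 3286 in L192P and 2845, 3348, 3452 and 3590.4 in WT. WT replicate 1 was the lowest library and the other 3 WT libraries lay above all L192P libraries. The beta means were 3173 ± 91.8 and 3309 ± 325, a log2 ratio of -0.06. The gamma genes together were at 4862, 4487, 4893 and 4742 in L192P and 4261, 5072, 5019.8 and 5537 in WT. Again WT replicate 1 was the lowest library and the other 3 WT libraries lay above all L192P libraries, WT replicate 4 being the highest. The gamma means were 4746 ± 185 and 4972 ± 528, a log2 ratio of -0.067. Without replicate 1 of both genotypes, the log2 ratio was -0.13 for alpha, -0.13 for beta and -0.15 for gamma. Each of these ratios is given as a description with no test.

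**Figure D3:**
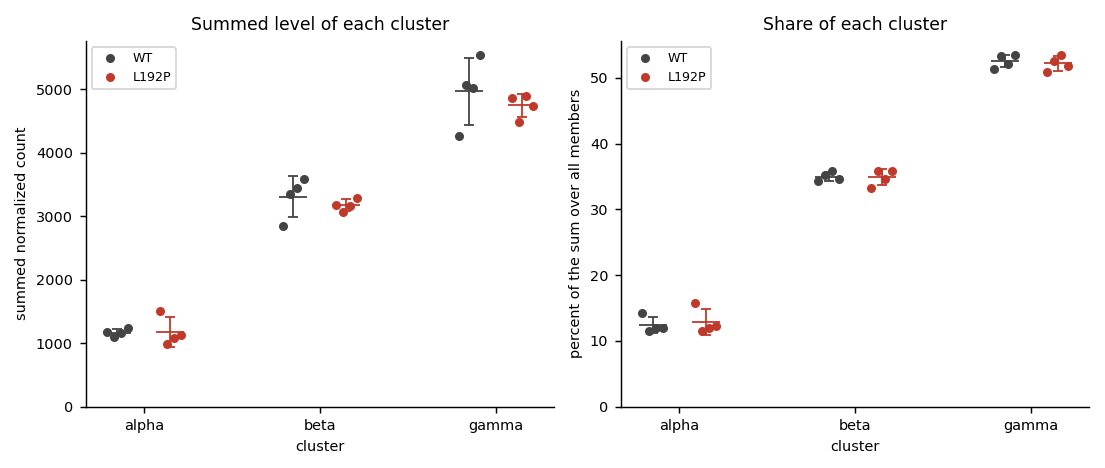
Summed normalized count of each cluster (left) and its percent of the sum over all members (right) in each of 4 WT (grey) and 4 L192P (red) libraries, with bars for the mean and SD. The gamma cluster holds between 50.9% and 53.5% of the summed counts, which are not adjusted for length, and the genotypes overlap in every cluster.

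Whether any single member differed between L192P and WT was tested with DESeq2 over the whole table, with Benjamini-Hochberg adjustment over all genes tested. Of the 58 members, 54 had enough counts for an adjusted p, and 0 of them passed the threshold of 0.05 in either direction. In the table as a whole, 253 of 18627 genes (1.36%) passed. At an unadjusted p under 0.05 there were 6 members, 4 lower and 2 higher in L192P, which is 11.1% of the 54 against 9.44% of all genes tested. In none of the 54 members did the 4 L192P libraries lie wholly above or below the 4 WT libraries, whereas this was so for 5.97% of all genes tested. The quasi-likelihood test of edgeR also called 0 of 54 members (5 at an unadjusted p under 0.05), with 0.314% of all genes called. limma-voom called 0 of 54 (7 at an unadjusted p under 0.05), with 0.266% called. With the replicate number as a block, DESeq2 kept an adjusted p for 36 members and called 0 of them (2 at an unadjusted p under 0.05), with 4.25% of all genes called. The smallest adjusted p of a member in that fit was 0.092, for Pcdhga11.

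The precision differed by class. The median log2 fold change of the 54 tested members was -0.063, beside 0.0019 over all genes tested, and 34 members were lower and 20 higher in L192P by the sign of the estimate alone. The medians were -0.049 for the 10 tested alpha genes outside the C-type, -0.065 for 21 beta genes, -0.079 for 11 gamma A genes, -0.10 for 7 gamma B genes and 0.089 for the 5 C-type genes. For 50 of the 54 members the 95% interval lay within 1 of zero on the log2 scale, and for 24 it lay within 0.5. The 4 whose interval reached further were Pcdha1, Pcdha2, Pcdha3 and Pcdha8, with 96 to 364 counts over the 8 libraries. The median standard error was 0.19 for the members and 0.14 for the 13144 tested genes with a mean in the members' range. The median coefficient of variation within genotypes was 17.3% and 12.4%. That range runs from 11.7 to 1697 normalized counts and the genes in it were not matched to the members by level, so these values do not compare variability at equal level. The 4 members without an adjusted p were Pcdha4, Pcdha11, Pcdhb1 and Pcdhga10, whose differences were not detectable at this depth.

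**Figure D4:**
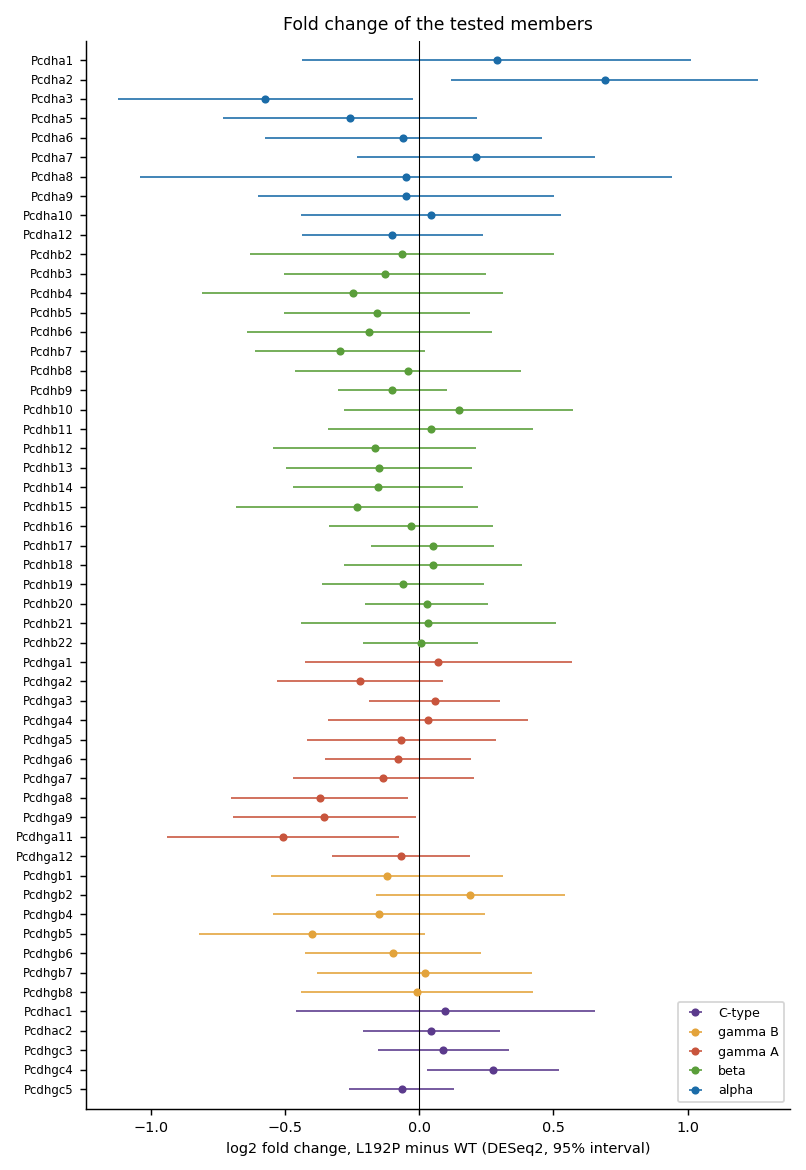
Log2 fold change of L192P over WT for the 54 tested members (points) with 95% intervals (lines), from DESeq2 and coloured by class. The beta, gamma and C-type intervals lie within 1 of zero, the widest are those of alpha genes, and the members whose interval leaves zero to 1 side did not pass the adjusted threshold.

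The C-type genes included the highest members, and their values are given first. Pcdhgc5 (chr18:37952510-37975014) was at 1800.3, 1567, 1625 and 1639 normalized counts in L192P replicates 1 to 4 and 1380.5, 1817, 1821 and 1927 in WT replicates 1 to 4. WT replicate 1 was the lowest library, the other 3 WT libraries lay above all L192P libraries, and the log2 fold change was -0.066 (SE 0.10, 95% interval -0.26 to 0.13). Leaving out replicate 1 of both genotypes brought its adjusted p from 0.942 to 0.0824 in DESeq2, with a log2 fold change of -0.20, still above the threshold. Pcdhac2 (chr18:37276444-37320716) was at 759.5, 478, 538 and 531 in L192P and 586, 536, 528 and 591 in WT. L192P replicate 1 was the highest library and L192P replicate 2 the lowest, and the log2 fold change was 0.045 (SE 0.13, 95% interval -0.21 to 0.30). Pcdhgc3 (chr18:37939416-37975014) was at 374, 432, 504 and 401 in L192P and 332, 401, 416 and 461 in WT. The genotypes overlapped, and the log2 fold change was 0.089 (SE 0.12, 95% interval -0.15 to 0.33).

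Pcdhgc4 (chr18:37947920-37975014), the gamma isoform that interneurons need to survive, was at 266, 216, 292 and 235 normalized counts in L192P libraries and 218, 199.97, 211 and 207 in WT. L192P replicate 2 lay just below the highest WT library and the other 3 L192P libraries above all WT libraries. The means were 252 ± 33.5 and 209 ± 7.35 (SD, n = 4) and the log2 fold change was 0.28 (SE 0.13, 95% interval 0.029 to 0.52). The unadjusted p was 0.0284 and the DESeq2 adjusted p 0.416, with a range of 0.342 to 0.852 over the alternatives. Of the 6 interneuron markers, 4 had positive estimates, with Gad2 called, and 2, Pvalb and Sst, had negative ones, as given above. The part of interneuron content in this value was not tested. Pcdhac1 (chr18:37223066-37320716) was at 75.7, 37.6, 68.03 and 39.5 in L192P and 53.7, 57.6, 59.7 and 35.1 in WT, with a log2 fold change of 0.10 (SE 0.28, 95% interval -0.46 to 0.65). The genotypes overlapped, and its sign turned in 4 of 17 alternatives.

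Among the alpha genes outside the C-type, Pcdha2 (chr18:37072258-37320714) had the smallest unadjusted p. It was at 65.4, 34.1, 43.8 and 58.7 normalized counts in L192P libraries and 35.5, 23.7, 29.3 and 38.6 in WT, so that 3 L192P libraries lay above all WT libraries and L192P replicate 2 did not. The log2 fold change was 0.69 (SE 0.29, 95% interval 0.12 to 1.26), the unadjusted p 0.0178 and the DESeq2 adjusted p 0.337 (0.26 to 0.807 over the alternatives). Its neighbour Pcdha3 (chr18:37079158-37320716) had the opposite sign, at 41.1, 28.4, 26.5 and 43.1 in L192P and 69.2, 41.2, 49.97 and 48.00 in WT. L192P replicate 4 lay above the lowest WT library and the other 3 L192P libraries below all WT libraries, and the log2 fold change was -0.57 (SE 0.28, 95% interval -1.12 to -0.025) with a DESeq2 adjusted p of 0.485. Pcdha12 (chr18:37153154-37320716), the highest of the class, was at 138, 134, 99.2 and 119.8 in L192P and 106, 138, 156 and 128 in WT. The genotypes overlapped and the log2 fold change was -0.10 (SE 0.17, 95% interval -0.44 to 0.24). Pcdha11 (chr18:37143736-37320714), the lowest, was at 3.74, 1.14, 4.61 and 0 in L192P and 1.82, 2.26, 0 and 0 in WT, so no fold is given. The remaining tested alpha genes (Pcdha1, Pcdha5, Pcdha6, Pcdha7, Pcdha8, Pcdha9 and Pcdha10) had log2 fold changes between -0.26 and 0.29. In 8 of the 12 tested genes of the alpha cluster, C-type included, L192P replicate 1 was the highest L192P library, beside 29.1% of all genes tested.

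No beta gene had an unadjusted p under 0.05 in the DESeq2 test. The smallest belonged to Pcdhb7 (chr18:37474755-37478255), which was at 116, 127, 159 and 139 normalized counts in L192P libraries and 152, 142, 174 and 199 in WT. The L192P libraries tended to lie low but L192P replicate 3 exceeded 2 WT libraries. The log2 fold change was -0.29 (SE 0.16, 95% interval -0.61 to 0.021), with an unadjusted p of 0.0676 and an adjusted p of 0.586. Pcdhb20 (chr18:37637317-37640875), the highest beta gene per kb, was at 344, 331, 319 and 396 in L192P and 297, 379, 320.5 and 364 in WT. Its groups overlapped almost fully, with a log2 fold change of 0.028 (SE 0.12, 95% interval -0.20 to 0.26). Pcdhb1 (chr18:37397991-37400578), the lowest, was at 2.80, 0, 2.31 and 0 in L192P and 0, 0.565, 2.17 and 1.17 in WT, with at most 3 counts in a library. The other 19 tested beta genes had log2 fold changes between -0.25 (Pcdhb4) and 0.15 (Pcdhb10). The 5 beta genes with a miR-128-3p match had a median of -0.062 and the 16 tested beta genes without it -0.083. The 2 with a miR-29a-3p match, Pcdhb4 and Pcdhb22, had log2 fold changes of -0.25 and 0.0058. The 12 tested alpha genes, all with that match, had a median of -0.0027, and the 21 tested gamma genes, with none, -0.068.

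In the gamma A class, 3 genes had an unadjusted p under 0.05 and each was lower in L192P by its estimate, without passing the adjusted threshold. Pcdhga11 (chr18:37888772-37975014), also the highest of the class per kb when bases under the antisense gene are left out of its length, was at 99.96, 76.2, 156 and 151 normalized counts in L192P libraries and 154, 147, 161 and 226 in WT. L192P replicates 1 and 2 lay below all WT libraries, replicates 3 and 4 within their range, and WT replicate 4 was far the highest. The log2 fold change was -0.51 (SE 0.22, 95% interval -0.94 to -0.077), the unadjusted p 0.0208 and the adjusted p 0.36 in DESeq2 (0.092 to 0.862 over the alternatives). It shares bases with the antisense lncRNA Gm26672, so its value is uncertain. Pcdhga8 (chr18:37858741-37975014) was at 163, 139.97, 148 and 95.8 in L192P and 158, 189.8, 193 and 167 in WT, with L192P replicate 1 above the lowest WT library. Its log2 fold change was -0.37 (SE 0.17, 95% interval -0.70 to -0.043), with an adjusted p of 0.403. Pcdhga9 (chr18:37869957-37975014) was at 122, 101, 159 and 155 in L192P and 150.2, 179.6, 152 and 204 in WT, and 2 L192P libraries overlapped the WT range. Its log2 fold change was -0.35 (SE 0.17, 95% interval -0.69 to -0.014), with an adjusted p of 0.49. Pcdhga1 (chr18:37794846-37975014), the lowest measured gene of the class per kb, was at 71.00, 73.97, 56.5 and 67.1 in L192P and 68.3, 74.00, 33.7 and 78.4 in WT. WT replicate 3 was the lowest of all 8 libraries and the log2 fold change was 0.071 (SE 0.25, 95% interval -0.42 to 0.57). The other 7 tested gamma A genes had log2 fold changes between -0.22 (Pcdhga2) and 0.057 (Pcdhga3).

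In the gamma B class, Pcdhgb5 (chr18:37864019-37975014) had both the lowest level per kb of its own bases and the smallest unadjusted p. Per kb of the first exon it was not the lowest. It was at 61.7, 44.4, 57.7 and 82.7 normalized counts in L192P libraries and 81.04, 78.5, 90.2 and 74.9 in WT. L192P replicates 1 to 3 lay below all WT libraries and L192P replicate 4 within them. The log2 fold change was -0.40 (SE 0.22, 95% interval -0.82 to 0.023), with an unadjusted p of 0.0639 and a DESeq2 adjusted p of 0.571. Pcdhgb6 (chr18:37875097-37975014), the highest of the class, was at 135, 159, 161 and 218 in L192P and 198, 153, 169 and 203 in WT. The groups overlapped and the log2 fold change was -0.10 (SE 0.17, 95% interval -0.42 to 0.23). The other 5 genes ranged from -0.15 (Pcdhgb4) to 0.19 (Pcdhgb2).

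**Figure D5:**
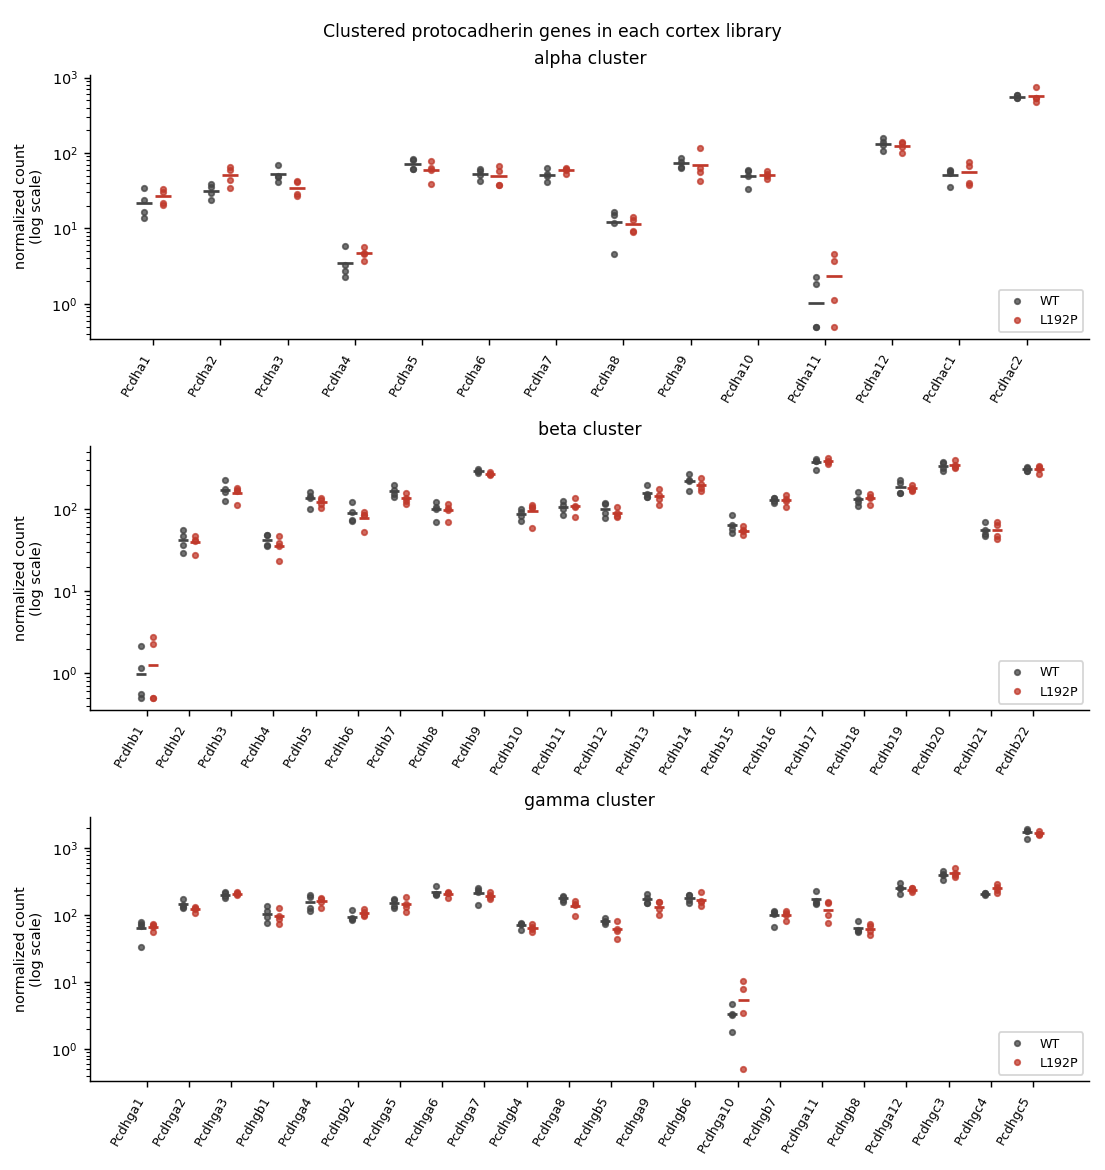
Normalized count (log scale) of each member in every library, by cluster in chromosome order, for WT (grey) and L192P (red), with a bar at each mean and 0 drawn at 0.5. The groups overlap for every tested member, and Pcdha4, Pcdha11, Pcdhb1 and Pcdhga10, which have few counts, are the lowest.

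Which library was highest or lowest within a genotype was counted over the members. WT replicate 4 was the highest WT library for 30 of the 54 tested members, beside 22.9% of all genes tested, and WT replicate 1 for 6, beside 29.7%. WT replicate 1 was the lowest WT library for 25 members, beside 29.96% of all genes. In L192P the highest library was replicate 1 for 17 members, replicate 3 for 15, replicate 4 for 15 and replicate 2 for 7. The lowest L192P library was replicate 2 for 24 members, beside 24.6% of all genes. The median log2 fold change over members moved from -0.063 to -0.0082 without WT replicate 4, to -0.11 without WT replicate 1 and to -0.16 without replicate 1 of both genotypes.

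The factors that act on protocadherin promoters were looked at next. The list held 19 genes: CTCF, cohesin and its loaders and releasers, DNA methylation and repressive chromatin factors. All 19 were tested by DESeq2 and 0 were called, beside 1.36% of all genes tested. At an unadjusted p under 0.05 there were 5, all higher in L192P, namely Stag2, Smc3, Nipbl, Smchd1 and Stag1, beside 9.44% of all genes tested in either direction. The median log2 fold change of the list was 0.065, with 16 genes above zero and 3 below, beside 0.0019 over all genes tested. Stag2, a cohesin subunit, had the smallest unadjusted p (0.00614). It was at 1838, 1850.4, 1794 and 1796 normalized counts in L192P libraries and 1680.1, 1489, 1651 and 1646 in WT. Every L192P library lay above every WT library, and the log2 fold change was 0.17 (SE 0.063, 95% interval 0.049 to 0.30) with a DESeq2 adjusted p of 0.191 (0.116 to 0.656 over the alternatives). The values of the other 4 were log2 fold changes of 0.20 for the cohesin core subunit Smc3, 0.23 for the cohesin loader Nipbl, 0.16 for the silencing factor Smchd1 and 0.17 for Stag1. Ctcf, which binds the promoters directly, was at 2137 ± 90.4 in L192P and 2132 ± 95.2 in WT (SD, n = 4), with a log2 fold change of 0.0054 (SE 0.062, 95% interval -0.12 to 0.13).

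Partners of the proteins were also on a list of 23 genes, among them the focal adhesion kinases, the WAVE actin-regulatory complex, the proteases that shed protocadherins and neuroligins. All 23 were tested by DESeq2, 0 were called and 0 had an unadjusted p under 0.05, beside 1.36% and 9.44% of all genes tested. Over both lists, edgeR called 0 of 42 genes (5 at an unadjusted p under 0.05) and limma-voom 0 of 42 (6). Of all genes tested, edgeR called 0.314% and limma-voom 0.266%. The median log2 fold change of the partners was -0.038, with 13 genes below zero and 10 above. The smallest unadjusted p (0.0556) was that of Nlgn2, a neuroligin of inhibitory synapses. It was at 6043, 6222, 6126 and 6303 normalized counts in L192P libraries and 6559.99, 7074, 6405 and 6438 in WT. The 4 L192P libraries lay below the 4 WT libraries, and the log2 fold change was -0.10 (SE 0.053, 95% interval -0.21 to 0.0024) with a DESeq2 adjusted p of 0.547. The kinases Ptk2 and Ptk2b, which bind the constant part of the proteins, had log2 fold changes of -0.065 and -0.10.

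The locus around the clusters showed no called gene either. Inside the clusters there were 27 annotated genes that are not members, mostly lncRNAs and pseudogenes, of which 6 were tested and 10 had no count. Among those with no count were Gm37013, Gm38666 and Gm37388, models that start in the alpha cluster, end in the gamma cluster and have no exon base of their own. Taf7, a general transcription factor subunit lying between the beta and gamma clusters, was at 268 ± 38.3 normalized counts in L192P libraries and 274 ± 32.95 in WT, with a log2 fold change of -0.036 (SE 0.13, 95% interval -0.30 to 0.23). The antisense lncRNA Gm26672, which covers Pcdhga10, was at 13.6 ± 7.04 and 15.2 ± 2.29. Of 43 genes within 500 kb on either side, 30 were tested. DESeq2 called 0 of the 36 neighbours tested, 2 having an unadjusted p under 0.05, beside 1.36% and 9.44% of all genes tested. edgeR and limma-voom called 0 of 31 each, also with 2, beside 0.314% and 0.266% of all genes called. The smallest unadjusted p (0.0149) was that of Slc35a4, a nucleotide sugar transporter gene at chr18:36812184-36817453. It was at 1136, 1187, 1178 and 1069.7 normalized counts in L192P libraries and 1188, 1331, 1406 and 1263 in WT. The highest L192P library lay just below the lowest WT library, and the log2 fold change was -0.18 (SE 0.075, 95% interval -0.33 to -0.036) with a DESeq2 adjusted p of 0.313.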

How the data were processed

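The authors aligned stranded mRNA reads of total RNA from cortex to GRCm39 with STAR and deposited counts per gene made with featureCounts 1.5.1. Their notes list STAR 2.7.9a and DESeq2 1.40.2. A second table of normalized signal was deposited by the authors and equals the counts divided by DESeq2 size factors, with a largest difference of 3.49e-10. Strand setting and Ensembl release are not given in the sources used here. No column of the authors' own tests was used.

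Here DESeq2 1.42.0 in R 4.3.3 was fitted to the counts with genotype as the only term, after the study's methods, and a gene counted as called when its Benjamini-Hochberg adjusted p was under 0.05. Intervals are the estimate with 95% normal limits. Fold changes are not shrunken. Independent filtering set aside 14037 of 32676 genes with a count. Depth per library was 20396357 to 43575900 counts. Exon bases came from GENCODE M39 for all 58 members and 98.8% of the table, and a level per kb was given where at least 200 bases were a gene's own. Alternatives were edgeR 4.0.16, limma-voom 3.58.1, size factors from TMM or from total counts, at least 10 counts in 4 libraries, no independent or Cook filtering, the replicate block, replicates 2 to 4 only and each library left out. The main DESeq2 fit, the replicate block, edgeR and limma-voom were tested on simulated data without a replicate effect, and the other alternatives were not. Members, lists and the rule for named genes were chosen with earlier results of these data known. Not every gene of the marker lists is reported here. Every member is named with its level, and per-library values are given for the C-type genes, for the highest, the lowest and the smallest unadjusted p of each other class, and for the smallest unadjusted p of each list. Pcdha3, Pcdhga8 and Pcdhga9 were added after their values were seen.

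The replicate numbers of the labels were checked for pairing. Deviations from the group mean correlated at 0.63, 0.38, 0.23 and 0.33 between same-numbered libraries of both genotypes, over 13422 genes, so the fit with the replicate number as a block is given beside the calls of the fit by genotype alone, which is the source of every other value.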

Additional observations from a re-analysis of the deposited data

Results flagged for a closer look

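In 4 of 122 groups of 4 libraries screened, 1 library lay far from the other 3 of its genotype, where chance would give about 6. Pcdhb6 was at 53.0 normalized counts in L192P replicate 3 and between 85.3 and 91.6 in the other L192P libraries. Pcdhga6 was at 270.4 in WT replicate 4 and between 198 and 208 in the other WT libraries. Pcdhga11 was at 226 in WT replicate 4 and between 147 and 161 in the other WT libraries, and without that library its log2 fold change was -0.35. Pcdhgb8 was at 80.4 in WT replicate 3 and between 56.2 and 60.1 in the other WT libraries.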

How the results depend on the processing

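The 17 alternatives each called 0 members, 0 genes of the regulator and partner lists and 0 neighbouring genes. None moved the members' median by more than the spread between libraries. Nor did the 12 that change the summed level of a cluster move that level by more. That spread was 0.105 for the median and 0.195, 0.108 and 0.119 for the alpha, beta and gamma sums. Each is larger than the estimate itself, so this comparison cannot show that the estimates or their signs are stable. The median log2 fold change of the tested members ranged from -0.11 to -0.0082 when each library was left out, was -0.16 with only replicates 2 to 4, and was -0.069 with the replicate block, which called 0 of 36 members and 0 genes of the regulator and partner lists or neighbours. The summed levels gave log2 ratios from -0.13 to 0.088 for alpha, -0.13 to -0.019 for beta and -0.13 to -0.012 for gamma when each library was left out. The sign turned for Pcdhac1 in 4 alternatives, Pcdhac2 in 2, Pcdhb20 in 3, Pcdhb1 in 3 of 14, Pcdhga1 in 1 and Pcdhgb6 in 1, none of them called. The level of Pcdhgc5 per kb was 218 with all exon bases and 647 with the first exon alone, a length chosen after seeing the data. With 4 libraries a genotype and a median standard error of 0.19 on the log2 scale, small changes of single members are not resolved.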

Other observations

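The protocadherin genes outside the clusters, 12 protein-coding genes named Pcdh and a number, were looked at after the results above were seen. DESeq2 tested all 12 and called 1, Pcdh8, and 3 had an unadjusted p under 0.05, beside 1.36% and 9.44% of all genes tested. Pcdh8, an activity-induced protocadherin of excitatory synapses on chromosome 14, was at 755, 758, 828 and 719.9 normalized counts in L192P and 607, 603, 656 and 512 in WT. Every L192P library lay above every WT library, the log2 fold change was 0.36 (SE 0.092, 95% interval 0.18 to 0.54) and the DESeq2 adjusted p was 0.0119. The adjusted p was 0.101 in edgeR and 0.108 in limma-voom, and leaving out L192P replicate 2, L192P replicate 3, WT replicate 2 or WT replicate 4 brought it to 0.0637, 0.116, 0.064 and 0.112, so the call was kept in 11 of 17 alternatives. The other 2 were Pcdh18 and Pcdh11x, with log2 fold changes of 0.42 and 0.21 and DESeq2 adjusted p of 0.269 and 0.521. Of the 12, 10 were above zero and 2 below, with a median of 0.10. The difference between these genes and the clustered ones was not tested.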
